A study of Mus musculus with 30 samples.

Results

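Transcripts of 10 circadian clock genes were followed through 30 RNA-seq libraries of mouse retinal pigment epithelium (RPE) and bone marrow-derived macrophages (BMDMs). The genes were Per1, Per2, Per3, Cry1, Cry2, Clock, Nr1d1, Nr1d2, Dbp and Tef, taken as the rows whose name equals one of these symbols, and all 10 were found once among the 55573 genes listed for each tissue. RPE was taken at postnatal day 25 (P25), with 6 B6 WT libraries, 6 of Mertk-/-V1, 3 of Mertk-/-V2 and 3 of Mertk-/-V3, and BMDMs gave 3 libraries of each genotype. The labels call them biological replicates without naming the animals, so p-values measure the spread between these samples. The labels give the strain C57BL/6J for every sample, including the wildtype, and call the knockouts Mertk knockout version 1, 2 and 3. Mertk-/-V1 mice were made in 129P2 ES cells with a neomycin cassette in the targeted locus, were backcrossed to B6 and still carry a 129P2 stretch of chromosome 2 around Mertk. Mertk-/-V2 mice descend from a floxed allele made in C57BL/6NJ embryos and lost the exon in the germline through a tamoxifen-inducible Cre that was later bred out. Mertk-/-V3 mice carry a CRISPR deletion made in C57BL/6NJ eggs. The deletions are in every cell of all 3 lines. RPE cells were shaken off posterior eyecups and used without culture, and BMDMs were grown from bone marrow in L929-conditioned medium. The hour of collection within the light cycle is not given in the sources used here. Each library is a single sampling of one preparation, so the values below are levels at the time of collection and not rhythms.

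The clock is a feedback loop of transcription. CLOCK and its partner BMAL1, the product of Arntl, bind E-boxes and switch on the Per, Cry, Nr1d, Dbp and Tef genes. PER and CRY proteins return to block CLOCK and BMAL1, and NR1D1 and NR1D2 (REV-ERB alpha and beta) repress Arntl. DBP and TEF are proline and acidic amino acid-rich basic leucine zipper factors that carry the rhythm to output genes through D-boxes. In the eye, the shedding and engulfment of photoreceptor outer segments follow the time of day, and macrophages also hold a clock that modulates their inflammatory responses.

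The promoters show where these inputs can be read in sequence. RefSeq (GRCm38.p6) gave 13 promoter windows for 9 of the 10 genes, with Per2 not among them, and the 250 bases before each start were searched on both strands. The E-box CACGTG was present in windows of Cry1, Per1 and Tef, the related E-box CACGTT in those of Cry1, Cry2 and Nr1d1, and the D-box TTATGTAA in that of Per3. Of all 32851 mouse promoter windows of the same length, 6.02% held CACGTG, 3.85% CACGTT and 0.819% TTATGTAA. The D-box TTACGTAA (0.113% of windows) and TAGGTCA (2.23%), the core of the element read by NR1D1, were in no window of these genes, which says only that these letters are not there. The 4 sequences that follow hold some of these matches. The windows of Cry2 and Nr1d1 with CACGTT and another Tef window with CACGTG are not shown. Capitals mark CACGTG in Per1 (chr11:69098699-69098948, plus strand) and Tef (chr15:81802423-81802672, plus strand), the same E-box and a reverse-strand CACGTT in Cry1 (chr10:85185055-85185304, minus strand), and both copies of TTATGTAA in Per3 (chr4:151044666-151044915, minus strand).
Per1: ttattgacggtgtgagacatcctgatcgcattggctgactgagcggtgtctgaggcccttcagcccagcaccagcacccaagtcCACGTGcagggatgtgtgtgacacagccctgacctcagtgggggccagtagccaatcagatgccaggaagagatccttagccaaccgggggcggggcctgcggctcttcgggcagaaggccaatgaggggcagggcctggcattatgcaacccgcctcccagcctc
Tef: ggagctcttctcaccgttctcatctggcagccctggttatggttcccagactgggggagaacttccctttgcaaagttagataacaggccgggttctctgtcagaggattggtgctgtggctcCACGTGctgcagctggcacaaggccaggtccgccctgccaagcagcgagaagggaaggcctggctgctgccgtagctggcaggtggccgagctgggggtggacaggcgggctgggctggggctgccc
Cry1: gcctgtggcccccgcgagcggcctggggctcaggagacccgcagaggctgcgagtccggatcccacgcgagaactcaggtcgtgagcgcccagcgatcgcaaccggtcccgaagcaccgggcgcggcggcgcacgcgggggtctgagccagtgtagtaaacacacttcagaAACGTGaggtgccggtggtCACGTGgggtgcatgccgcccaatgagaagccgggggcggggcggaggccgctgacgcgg
Per3: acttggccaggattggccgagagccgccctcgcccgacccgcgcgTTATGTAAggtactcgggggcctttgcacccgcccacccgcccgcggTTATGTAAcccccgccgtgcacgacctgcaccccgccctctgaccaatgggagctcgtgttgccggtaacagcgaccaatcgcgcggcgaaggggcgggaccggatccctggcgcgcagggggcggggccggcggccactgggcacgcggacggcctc
The E-box CACGTG began 166 bases before the start in Per1, 127 in the Tef window shown, 138 in the other Tef window and 60 in Cry1. The D-boxes began 205 and 158 bases before the start of Per3. A match is a description of letters, and binding was not measured.

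The libraries held 14137666 to 34124049 recovered reads in RPE and 16629659 to 25653814 in BMDMs, and the least abundant value of any of the 10 genes, that of Per2 in one BMDM library, rested on 61 reads. Mertk itself ran from 2638 to 3924 normalized counts (deposited counts divided by a size factor for each library) in B6 WT RPE, from 919 to 1717 in Mertk-/-V1 and from 444 to 1106 in Mertk-/-V3, without overlap with B6 WT. In Mertk-/-V2 RPE it stood at 3565 to 5311, and in BMDMs it was 2414 to 2881 in B6 WT, 847 to 883 in Mertk-/-V1, 3532 to 3589 in Mertk-/-V2 and 651 to 723 in Mertk-/-V3. A count over the whole gene does not test the removal of single exons in Mertk-/-V2. Of 8 RPE markers, 7 had over 100 reads in every RPE library, while Best1 had 12 to 66. All 7 macrophage markers had over 100 reads in every BMDM library, and 6 of 9 rod markers had at most 3 reads in any BMDM library. The RPE libraries also held rod photoreceptor transcripts in very unequal amounts, from 30778 to 821978 normalized counts summed over the 9 rod genes, and values with and without the most affected libraries are given below. All 6 endothelial and all 5 fibroblast markers had over 100 reads in every RPE library. The fibroblast markers summed to 16253 to 24603 in B6 WT, 20895 to 36825 in Mertk-/-V1, 17408 to 34365 in Mertk-/-V2 and 13003 to 31586 in Mertk-/-V3. The part of these cells in the clock values was not tested.

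In B6 WT RPE, Tef, Dbp, Nr1d1 and Nr1d2 were the most abundant of the 10 transcripts per length. Their levels, in RPKM (recovered reads scaled for exon length and for the total of the library), were 32.2 ± 2.70 for Tef, 30.5 ± 4.95 for Dbp, 28.3 ± 4.17 for Nr1d1 and 24.9 ± 3.59 for Nr1d2 (SD, n = 6), and the ranges of these neighbours overlapped. Clock followed at 13.2 ± 0.994, with all 6 libraries below the lowest of Nr1d2 and above the highest of Cry2. Cry2 stood at 8.71 ± 1.71, Cry1 at 7.65 ± 2.13, Per3 at 5.42 ± 0.933, Per1 at 5.40 ± 1.50 and Per2 at 3.52 ± 0.460 on the same scale, each overlapping the next in order. Strand use in the counting is not stated, and reads from genes on the opposite strand cannot be told apart: 539 of the 2993 exon bases of Dbp lie over Sphk2 and 263 of the 3077 of Nr1d1 over Thra, while Cry2 and Tef share 4.67% and 2.45% with transcripts of few reads.

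The spread over the 18 RPE libraries was smallest for Clock and largest for Per1. The ratio of the highest to the lowest normalized count was 1.31 for Clock, 1.42 for Tef, 1.55 for Per3, 1.63 for Nr1d2, 1.77 for Nr1d1, 2.00 for Cry1, 2.06 for Per2, 2.27 for Cry2, 2.30 for Dbp and 2.59 for Per1. The SD of log2(value + 1) over these libraries was 0.364 for the median of the 18832 genes tested. It was below that value for 9 of the 10 genes, from 0.11 for Clock to 0.32 for Cry1, and 0.39 for Per1.

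Dbp and Nr1d1 are among the clock outputs with the widest daily swing in many tissues, and Arntl peaks on the opposite side of the day, so their ratios were computed library by library. Dbp over Arntl was lowest in Mertk-/-V1 replicate 6, at 0.804, and highest in B6 WT replicate 2, at 3.90. The medians were 2.33 in B6 WT, 2.22 for Mertk-/-V1, 2.43 for Mertk-/-V2 and 1.75 for Mertk-/-V3, and the range of each knockout overlapped that of B6 WT. Next lowest were Mertk-/-V3 replicate 1 (1.09), B6 WT replicate 5 (1.38) and Mertk-/-V1 replicate 5 (1.49). These and Mertk-/-V1 replicate 6 had the highest rod levels. B6 WT replicates 1 to 3 had 2.72, 3.90 and 2.99, above replicates 4 to 6 (1.95, 1.38 and 1.86) and every Mertk-/-V3 library. The sets of Mertk-/-V1 overlapped. The part of rod content or set in these ratios was not tested. Nr1d1 over Arntl spanned 1.67 to 3.20 over the 18 libraries, Per2 over Arntl 0.286 to 0.967 and Per3 over Arntl 0.759 to 2.12. No test was run on these ratios.

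**Figure D1:**
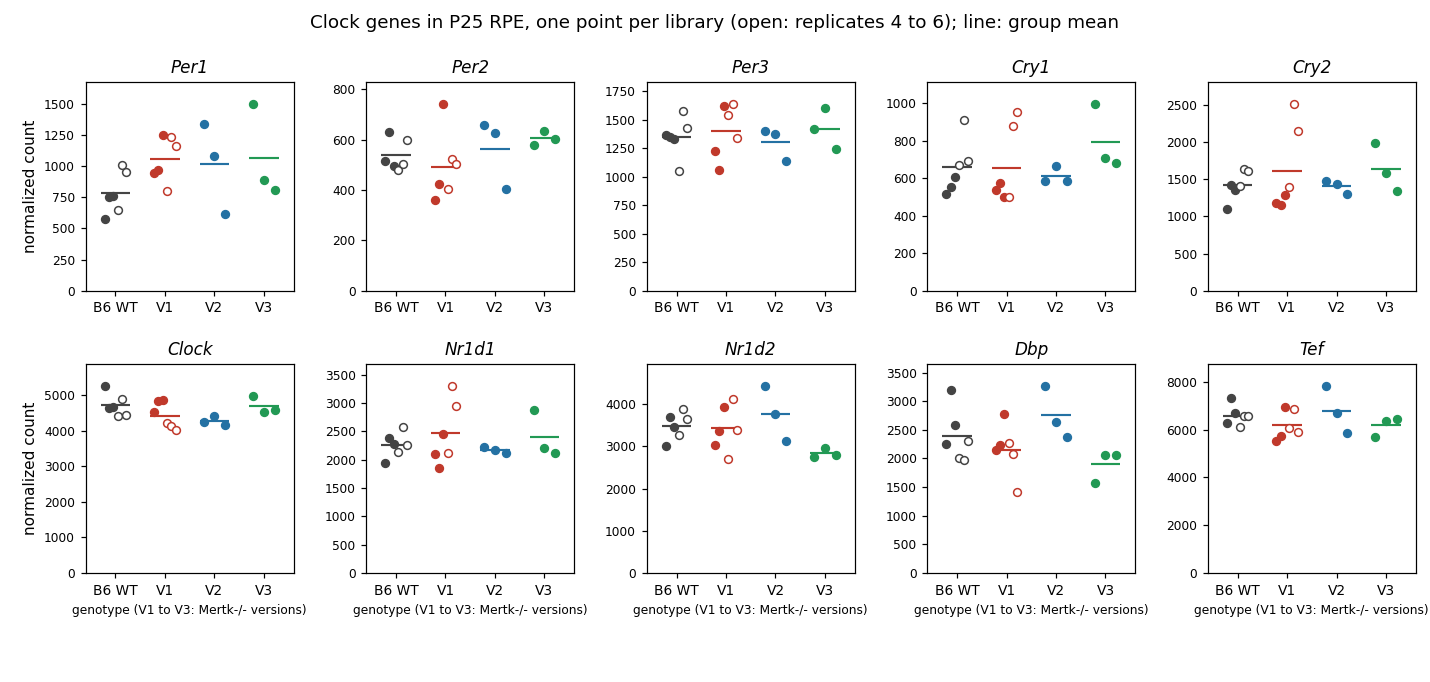
Normalized counts (vertical axes, from 0) of the 10 clock genes in the 18 RPE libraries, by genotype; each point is a library, open points are replicates 4 to 6, and lines are group means. Each knockout overlaps B6 WT for all genes except Clock in Mertk-/-V2 and Nr1d2 in Mertk-/-V3, which lie below B6 WT, and 2 open Mertk-/-V1 points stand above the rest of that group for Cry1, Cry2 and Nr1d1.

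The study asked which transcripts differ between the 3 Mertk-/- lines and B6 WT RPE. For the clock genes no difference passed the test: 0 of 10 had an adjusted p under 0.05 in any of the lines (limma with Benjamini-Hochberg adjustment over 18832 genes), beside 0.388%, 0.069% and 0.069% of all genes. At an unadjusted p under 0.05 there were 1, 0 and 1 in the lines in turn, beside 6.81%, 5.47% and 11.1% of all genes. In each line edgeR and DESeq2 also called 0. The median log2 fold change of the 10 genes was -0.03, 0.01 and 0.08 in the 3 lines in turn, and that of all genes tested 0.02, 0.02 and -0.01. The intervals were wide for some genes, with that of Per1 in Mertk-/-V1 reaching 0.87 on the log2 scale. Of 7 macrophage markers, Fcgr1 and C1qa were higher in Mertk-/-V1 RPE, by 1.13 and 1.04 (limma adjusted p = 0.00506 and 0.0346), while the sum of the 7 overlapped, at 6075 to 11485 normalized counts in Mertk-/-V1 and 7554 to 12708 in B6 WT. The part of such cells in the clock values was not tested, and in these bulk samples fewer cells of a type and less RNA per cell cannot be told apart.

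Among the repressors, Per1 was the gene with the largest difference from B6 WT in each knockout. Its lowest, median and highest normalized counts were 577, 756 and 1009 in B6 WT and 799, 1063 and 1246 in Mertk-/-V1. Mertk-/-V2 libraries held 1342, 1085 and 618, and Mertk-/-V3 libraries 1497, 889 and 810. The groups overlapped, and the lowest single value was in B6 WT. B6 WT replicates 1 to 3 alone held 577 to 760, below every Mertk-/-V1 and Mertk-/-V3 library. Replicates 4 to 6 of B6 WT held 649 to 1009 and overlapped each knockout. How many of all genes lie apart from replicates 1 to 3 in this way was not counted. The log2 fold change was 0.44 ± 0.20 (SE; unadjusted p = 0.0438, adjusted p = 0.716, limma) in Mertk-/-V1, 0.33 ± 0.25 for Mertk-/-V2 and 0.42 ± 0.25 for Mertk-/-V3. Per2 ran from 479 to 632 in B6 WT and from 359 to 740 in Mertk-/-V1, so that the B6 WT values lay inside the range of the knockout. Per3, a paralogue with a lesser part in the core loop, differed by 0.05 ± 0.12, -0.05 ± 0.15 and 0.07 ± 0.15 on the log2 scale in the 3 knockouts.

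The cryptochromes, which close the loop by binding CLOCK and BMAL1, overlapped with B6 WT in every knockout. Cry1 had 517, 638 and 912 normalized counts (lowest, median, highest) in B6 WT and 498, 555 and 952 in Mertk-/-V1, and Cry2 had 1107, 1419 and 1636 against 1153, 1338 and 2511. Mertk-/-V3 libraries held 994, 708 and 680 for Cry1 and 1993, 1580 and 1340 for Cry2, with replicate 1 the highest in both. For Cry1 all of these were above B6 WT replicates 1 to 3 alone, at 517 to 607. They overlapped B6 WT replicates 4 to 6, at 668 to 912. For Cry2 they overlapped both sets of B6 WT. How many of all genes lie apart from 1 set in this way was not counted. The log2 fold changes lay between -0.08 and 0.27 for Cry1 and between -0.01 and 0.19 for Cry2. Cry2 lies on chromosome 2, as Mertk does, and ends 36.3 Mb before it (GRCm38).

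Clock and the REV-ERB genes did not pass in any knockout. Clock, the activator, had 4418, 4660 and 5248 normalized counts in B6 WT (lowest, median and highest, as for every group of 6), 4015, 4364 and 4861 in Mertk-/-V1, 4233, 4410 and 4149 in Mertk-/-V2 and 4972, 4533 and 4578 in Mertk-/-V3. The Mertk-/-V2 libraries were all below the lowest B6 WT library, by little, and the log2 fold change was -0.15 ± 0.08 (limma adjusted p = 0.943). Nr1d2 had 3004, 3559 and 3880 in B6 WT and 2751, 2960 and 2806 in the 3 Mertk-/-V3 libraries, which were below every B6 WT library. The log2 fold change there was -0.29 ± 0.13 (limma unadjusted p = 0.0373, adjusted p = 0.449). A complete separation in either direction was seen for 1 of 10 genes in Mertk-/-V2 and for 1 in Mertk-/-V3, beside 5.66% and 4.32% of all genes tested, and for 0 in Mertk-/-V1, beside 1.09%. Nr1d1, the REV-ERB alpha gene, had 1944, 2258 and 2583 in B6 WT and 1860, 2283 and 3294 in Mertk-/-V1, and B6 WT overlapped every knockout.

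The output factors overlapped as well. Dbp had 1974, 2283 and 3202 normalized counts in the B6 WT libraries, 1417, 2191 and 2775 in Mertk-/-V1, 3259, 2638 and 2369 in Mertk-/-V2 and 1564, 2065 and 2054 in Mertk-/-V3. The Mertk-/-V3 values were below B6 WT replicates 1 to 3 alone, at 2260 to 3202. They overlapped B6 WT replicates 4 to 6, at 1974 to 2306. How many of all genes do the same was not counted. All Mertk-/-V2 libraries were above all Mertk-/-V3 libraries, with a log2 difference of 0.54 ± 0.21 (limma unadjusted p = 0.0228, adjusted p = 0.299). Nr1d2 differed the same way, by 0.40 ± 0.15 (limma unadjusted p = 0.0177, adjusted p = 0.280). The share of all genes with such a separation between these 2 lines was not counted. Tef had 6113, 6576 and 7336 in B6 WT, and its log2 fold changes lay between -0.10 and 0.04. Between Mertk-/-V2 and Mertk-/-V3, 0 of 10 genes passed, beside 0.0743% of all genes. An unadjusted p under 0.05 was found for 2, beside 12.6% of all genes. Setting Mertk-/-V1 beside the average of the remaining lines gave 0 as well, beside 0.207%. At an unadjusted p under 0.05 it gave 0, beside 9.56%. In both of these comparisons edgeR and DESeq2 also called 0.

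RPE libraries of B6 WT and of Mertk-/-V1 carry the replicate numbers 1 to 6, and the labels do not say what, if anything, separates numbers 1 to 3 from 4 to 6. Replicates 4 to 6 held more rod transcripts (all 9 rod markers passed as higher, with a median log2 difference of 2.10, and 4 of the 8 RPE markers as lower), and the sets were compared with a term for genotype. The Mertk-/-V2 and Mertk-/-V3 libraries are numbered 1 to 3, and for them set and genotype cannot be told apart. Of the 10 genes, 3 passed the test between the sets, and 41.9% of all 18832 genes did; the share among the clock genes was not above that of all genes. Cry2 was higher by 0.48 ± 0.13 on the log2 scale (limma adjusted p = 0.0119), Cry1 higher by 0.45 ± 0.15 (adjusted p = 0.0250) and Clock lower, at -0.14 ± 0.05 (adjusted p = 0.0461). Scaling to the library total moved the median of all genes by 0.15 and turned the direction of Clock to 0.01. Dbp, at -0.34 ± 0.13, had an adjusted p of 0.0531 (limma). Cry2 passed whichever of the 12 libraries was left out. The call of Cry1 was lost without B6 WT replicate 1 or 5 or without Mertk-/-V1 replicate 3, 5 or 6 (limma adjusted p up to 0.0699). That of Clock was lost without B6 WT replicate 1, 2, 3, 4 or 6 or Mertk-/-V1 replicate 2, 3, 5 or 6 (up to 0.121).

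In the single libraries the sets of Cry2 were apart in Mertk-/-V1 and nearly so in B6 WT. Cry2 had 1107, 1428 and 1351 normalized counts in B6 WT replicates 1 to 3 and 1410, 1636 and 1614 in replicates 4 to 6. In Mertk-/-V1 it had 1183, 1153 and 1284 in replicates 1 to 3 and 1392, 2511 and 2156 in replicates 4 to 6. Only the last 2 of these were above every B6 WT library. Within Mertk-/-V1 the log2 difference was 0.70 ± 0.18 (limma adjusted p = 0.0241) and 1 of 10 genes passed, beside 29.3% of all genes. Within B6 WT it was 0.27 (limma adjusted p = 0.363) and 0 genes passed, beside 0.303%, with 0 in edgeR and DESeq2. At an unadjusted p under 0.05 there were 0, beside 24.6% of all genes. The difference between the genotypes in the size of the set difference passed for 0 of 10, beside 0% of all genes. In edgeR and DESeq2 it passed for 0, and 0 had an unadjusted p under 0.05 in limma, beside 5.48%. Without Mertk-/-V1 replicate 5 the set difference of Cry2 within Mertk-/-V1 was 0.52 (limma adjusted p = 0.112), and without replicates 1, 2 or 6 it did not pass either.

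Cry2, Cry1 and Nr1d1 ran with the rod transcripts, as did many other genes: the slope given below passed as higher for 25.9% of all genes. When the libraries were ordered by the mean log2 level of the 9 rod genes, the top 5 were Mertk-/-V1 replicates 5 and 6, Mertk-/-V3 replicate 1 and B6 WT replicates 5 and 6. These were also the 5 highest libraries of Cry2, with 1614 to 2511 normalized counts, against 1107 to 1580 in the other 13, so that the groups did not overlap. They held 4 of the 5 highest values of Cry1 and of Nr1d1, and 0 of the 5 highest values of Dbp. Dbp ran from 1417 to 2306 in the 5 libraries and from 2000 to 3259 in the 13 others. How many of all genes rank or separate with these 5 libraries was not counted.

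A slope on the rod level, in a model with the 4 genotypes and chosen after the data had been seen, passed the test for 4 of 10 genes, all higher, beside 25.9% of all genes in that direction and 55.1% in either. The slopes, in log2 units for each doubling of the rod level, were 0.24 ± 0.02 for Cry2 (limma adjusted p = 1.36e-07), 0.22 ± 0.03 for Cry1, 0.17 ± 0.06 for Per1 and 0.15 ± 0.03 for Nr1d1. Those of Clock and Dbp were -0.04 and -0.11 and did not pass. With the rod level in the model, the set difference was -0.01 for Cry2 and -0.02 for Cry1, and 0 of 10 genes passed. In the genotype comparisons 0 of 10 passed with the rod level in the model, and 0 without the 3 libraries richest in rod transcripts. Over 3 other settings of the slope, the replicate set as a term among them, that of Cry2 was 0.241 to 0.292 (limma adjusted p up to 3.38e-05). For Cry1 it was 0.221 to 0.273 (up to 0.00203), for Per1 0.174 to 0.290 (up to 0.0146) and for Nr1d1 0.146 to 0.197 (up to 0.000684). The rod level and the replicate set moved together in part, and the cause of these values was not tested. The 8 RPE markers summed to 135108 to 412238 in Mertk-/-V1 and 348925 to 575807 in B6 WT.

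**Figure D2:**
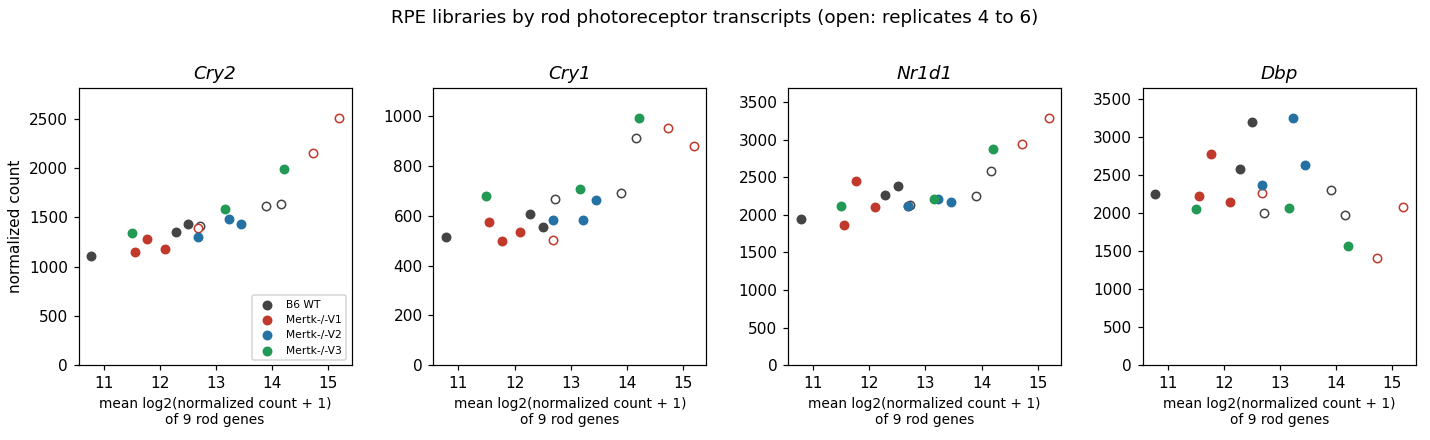
Normalized counts (vertical axes, from 0) of Cry2, Cry1, Nr1d1 and Dbp in the 18 RPE libraries against the mean log2(normalized count + 1) of 9 rod genes (horizontal axes); colours are genotypes and open points are replicates 4 to 6. The 5 libraries farthest to the right are the 5 highest for Cry2, from 1614 to 2511, and hold none of the 5 highest for Dbp.

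The rest of the clock was read from a list of 16 other clock genes, 5 outputs, 6 glucocorticoid-responsive genes and 12 immediate early genes. Against B6 WT, none of them passed in RPE of any knockout (limma, the one tool counted for these lists). At an unadjusted p under 0.05, Mertk-/-V1 had 2 of the 16 clock genes, 2 of the outputs, 1 of the glucocorticoid-responsive genes and 6 of the 12 immediate early genes. On the same lists Mertk-/-V2 had 1, 3, 1 and 1, and Mertk-/-V3 had 0, 1, 1 and 0. Of all genes tested, 6.81%, 5.47% and 11.1% had such a p in the 3 lines in turn. The immediate early genes are rapid responders to stimulation, and all 12 had a positive log2 fold change in Mertk-/-V1, with a median of 0.85.

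Between the sets, 7 of the 16 other clock genes passed, 4 higher and 3 lower in replicates 4 to 6, beside 41.9% of all genes. Arntl, the partner of Clock, was higher by 0.58 ± 0.13 on the log2 scale (limma adjusted p = 0.0073). Its normalized counts were 832, 821 and 865 in B6 WT replicates 1 to 3 and 1027, 1427 and 1240 in replicates 4 to 6. Its counts in Mertk-/-V1 were 981, 923 and 766, and then 1008, 1401 and 1763. No library of the second set was below one of the first in the same genotype. The share of all genes set apart in this way was not counted. Rora and Rorb, the activators that compete with the REV-ERBs, were higher by 0.58 and 0.81, and Btrc, which marks PER for destruction, by 0.38. Npas2, a stand-in for Clock, differed by -0.53, Bhlhe40, a repressor at E-boxes, by -0.44 and the kinase Csnk1d by -0.15. On the rod level, 5 of the 16 were higher and 4 lower, these 7 among them, beside 55.1% of all genes in either direction. The slopes of Arntl, Rora, Rorb and Btrc were 0.23, 0.29, 0.47 and 0.18 and those of Npas2, Bhlhe40 and Csnk1d -0.26, -0.19 and -0.07.

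Among the outputs and stress-linked genes, 1 of 5 outputs was higher and 1 lower between the sets, Usp2 by 0.85 and Wee1 by -0.30, and the counts in this paragraph stand beside the same 41.9% of all genes. Of the glucocorticoid-responsive genes, Klf9 was higher by 0.40, and Sgk1 and Errfi1 differed by -0.66 and -0.63. Of the immediate early genes, 1 was higher, Npas4 by 2.20, and 5 were lower: Dusp1 by -1.26, Junb by -1.15, Egr1 by -0.92, Ier2 by -0.85 and Jun by -0.72. The cause of the set difference was not tested.

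The genes nearest to Dbp, Nr1d1 and Per3 in pattern over the 18 RPE libraries were found by the root mean square difference of centred log2 values, as a description. For Dbp these were Cers5, Tpst1 and Itga9, with differences of 0.129, 0.140 and 0.143, against a root mean square deviation of 0.295 for Dbp itself. For Nr1d1 they were Elac1, Zranb1 and Cyth1 (0.0726, 0.0884 and 0.0897, against 0.208), and for Per3 they were Brat1, Ccnt2 and Rccd1 (0.123, 0.123 and 0.125, against 0.191). The clock genes followed here, from Per1 to Tef, were left out of the search, so their absence from these names is not a result. None of the other clock genes listed was among the nearest genes named, and farther ranks are not given. The search drew on the 18832 genes tested, less the clock genes left out, and the libraries share depth and rod content.

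In B6 WT BMDMs the 10 genes stood in another order. Tef was again first, at 7.82 ± 0.144 RPKM (SD, n = 3), above every library of Nr1d2. Nr1d2, at 5.92 ± 0.566, overlapped Dbp at 5.08 ± 0.652, which in turn overlapped Per1 at 4.52 ± 0.181. Clock at 3.30 ± 0.382 stood below every library of Per1 and overlapped Cry1 at 3.21 ± 0.184. Nr1d1 stood below every library of Cry1, at 1.95 ± 0.312, overlapping Cry2 at 1.73 ± 0.149, and Per3 at 1.23 ± 0.221 and Per2 at 0.761 ± 0.0316 each stood below every library of the gene before. The tables of the tissues were scaled separately, and the levels are set side by side without a test. Over the 12 BMDM libraries the ratio of highest to lowest value was between 1.34 for Tef and 2.04 for Per2, and the SD of log2(value + 1) was above the median of all genes tested, 0.135, for 9 of the 10, with Tef at 0.13.

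**Figure D3:**
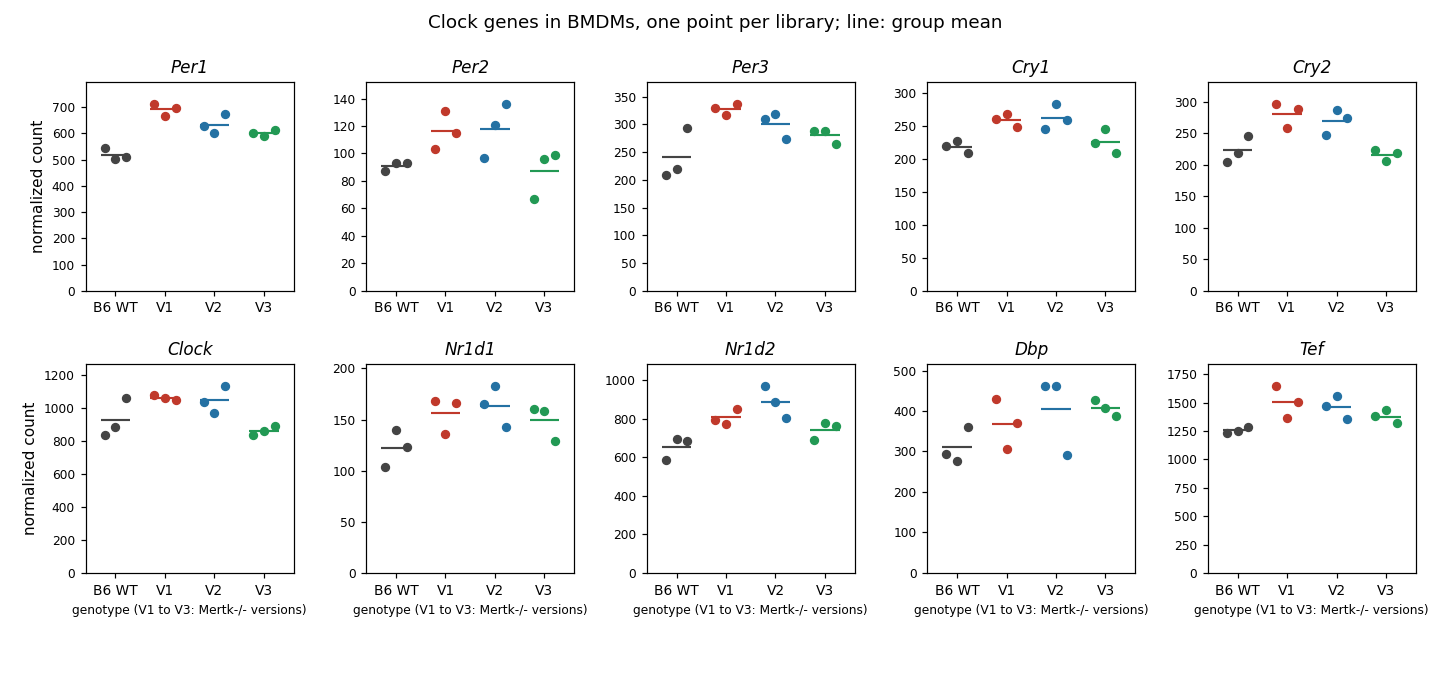
Normalized counts (vertical axes, from 0) of the 10 clock genes in the 12 BMDM libraries, by genotype; each point is a library and lines are group means. The Mertk-/-V1 and Mertk-/-V2 libraries lie above all B6 WT libraries for Per1, and the Mertk-/-V3 libraries of Per1 lie above them as well.

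In BMDMs, Per1, Per3, Nr1d2 and Tef were higher in Mertk-/-V1 than in B6 WT, and Per1 and Nr1d2 in Mertk-/-V2. The log2 fold changes of the 10 genes were all above 0 in both lines, including those that did not pass. In Mertk-/-V1, 4 of 10 passed the test, all higher (limma with Benjamini-Hochberg adjustment over 13420 genes), beside 3.92% of all genes in that direction and 7.07% in either. In Mertk-/-V2, 2 of 10 passed, both higher, beside 2.24% in that direction and 4.61% in either. In Mertk-/-V3, 0 of 10 passed, beside 1.17%, and edgeR and DESeq2 also called 0. At an unadjusted p under 0.05 in limma there were 3, beside 15.9% of all genes. The median log2 fold change of the 10 genes was 0.32 in Mertk-/-V1, 0.31 for the Mertk-/-V2 line and 0.16 for Mertk-/-V3, and that of all genes tested rounded to 0.00 in each. The 3 comparisons share their B6 WT libraries, so the direction of one B6 WT library enters all of them.

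Per1, an E-box target that responds early to stimulation, had the smallest adjusted p of the 10 in Mertk-/-V1. Its normalized counts were 543, 503 and 510 in B6 WT, 711, 665 and 696 in Mertk-/-V1, 627, 600 and 672 in Mertk-/-V2 and 602, 590 and 611 in Mertk-/-V3. Each knockout library was above each B6 WT library. The log2 fold change was 0.41 ± 0.06 (limma adjusted p = 0.0014) in Mertk-/-V1, 0.29 ± 0.06 (adjusted p = 0.0191) in the second line and 0.21 ± 0.06 (adjusted p = 0.102) in Mertk-/-V3. In Mertk-/-V1 it passed under every alternative run, with limma, edgeR or DESeq2 adjusted p from 1.29e-05 to 0.0125, each library left out in turn included.

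Per3 and Tef rose in Mertk-/-V1 BMDMs. Per3 had 209, 220 and 294 normalized counts in B6 WT and 329, 317 and 336 in Mertk-/-V1, without overlap, and differed by 0.46 ± 0.11 on the log2 scale (limma adjusted p = 0.0304). Tef, a D-box factor, had 1231, 1247 and 1288 in B6 WT and 1645, 1365 and 1505 in Mertk-/-V1, again without overlap, and differed by 0.26 ± 0.07 (limma adjusted p = 0.0360). In Mertk-/-V2 the difference was 0.33 ± 0.11 for Per3 and 0.22 ± 0.07 for Tef, and neither passed (limma adjusted p = 0.112 and 0.0801).

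Nr1d2 passed in both lines. Its counts were 585, 691 and 685 in B6 WT, 794, 773 and 850 in Mertk-/-V1, 967, 888 and 803 in Mertk-/-V2 and 690, 777 and 760 in Mertk-/-V3. The Mertk-/-V1 and Mertk-/-V2 libraries lay above every B6 WT library, and 1 Mertk-/-V3 library lay below the highest of them. The log2 fold change was 0.30 ± 0.08 (limma adjusted p = 0.0407) in Mertk-/-V1 and 0.44 ± 0.08 (adjusted p = 0.0110) in Mertk-/-V2. In Mertk-/-V3 it was 0.19 ± 0.08 (limma adjusted p = 0.287). The calls of Per3, Tef and Nr1d2 in Mertk-/-V1 were lost without single libraries: without B6 WT replicate 1 the adjusted p were 0.148, 0.135 and 0.183 in limma, and only Per1 passed, as also without B6 WT replicate 2 or without Mertk-/-V1 replicate 1 or 3. In Mertk-/-V2, Nr1d2 did not pass without B6 WT replicate 1 (limma adjusted p = 0.0571), nor Per1 without B6 WT replicate 2 (0.0876). With only the B6 WT and Mertk-/-V2 libraries in the model, neither passed (limma adjusted p = 0.0984 for Nr1d2 and 0.145 for Per1).

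The other clock genes of the group did not pass in BMDMs, and most lay above B6 WT in Mertk-/-V1 and Mertk-/-V2. Cry2 had 205, 219 and 246 normalized counts in the B6 WT libraries, 296, 258 and 289 in Mertk-/-V1, 247, 287 and 275 in Mertk-/-V2 and 223, 206 and 219 in Mertk-/-V3, and its log2 fold change of 0.33 in Mertk-/-V1 had an adjusted p of 0.0558 (limma). Clock had 835, 884 and 1058 in B6 WT and 1078, 1058 and 1048 in Mertk-/-V1, where B6 WT replicate 3 overlapped the knockout. Cry1, Per2 and Nr1d1 differed by 0.24, 0.35 and 0.36 in Mertk-/-V1 and by 0.26, 0.36 and 0.42 in Mertk-/-V2. Dbp had 294, 276 and 360 in B6 WT and 429, 307 and 370 in Mertk-/-V1, 461, 461 and 291 in Mertk-/-V2 and 426, 406 and 388 in Mertk-/-V3. Only the Mertk-/-V3 libraries of Dbp stood wholly above B6 WT, at a log2 fold change of 0.40 ± 0.17 (limma adjusted p = 0.262). Counted by separation, 7 of 10 genes for Mertk-/-V1, 7 for Mertk-/-V2 and 3 for Mertk-/-V3 had every knockout library above every B6 WT library, beside 15.4%, 10.1% and 12.2% of all genes, and 0 were wholly below.

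**Figure D4:**
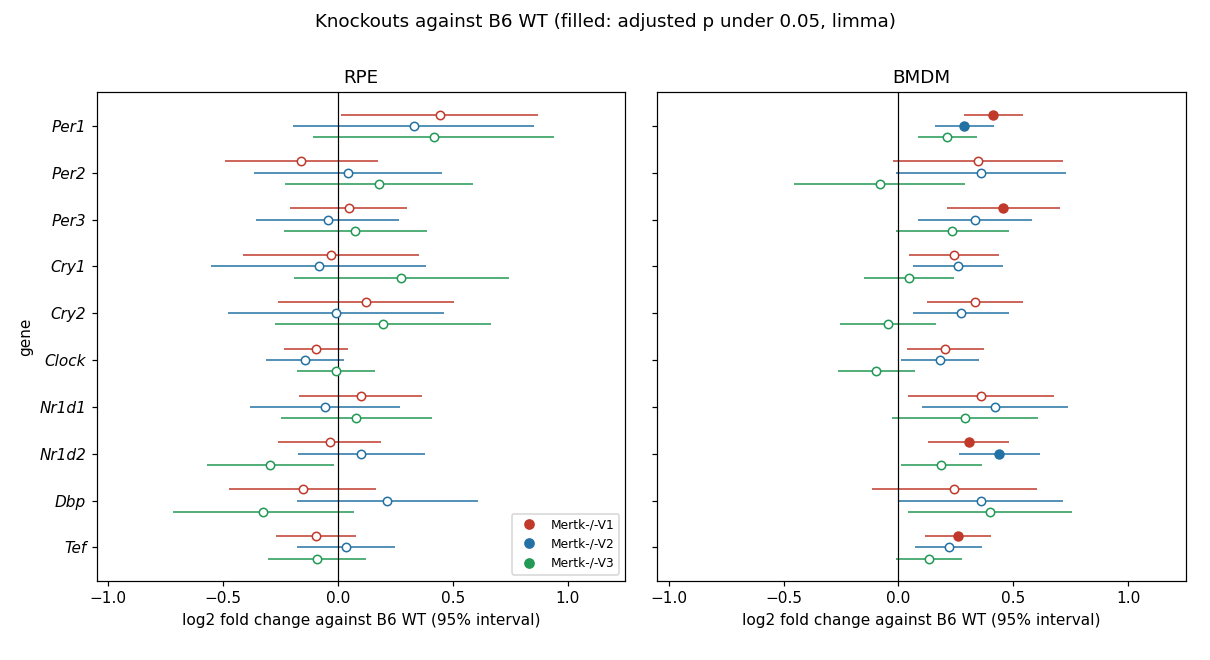
Log2 fold changes of the 10 clock genes against B6 WT (horizontal axis) with 95% intervals from limma, in RPE (left) and BMDMs (right); colours are the knockout lines and filled points have an adjusted p under 0.05. In BMDMs the filled points are Per1, Per3, Nr1d2 and Tef in Mertk-/-V1 and Per1 and Nr1d2 in Mertk-/-V2, and in RPE no point is filled.

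The knockouts were also compared with each other in BMDMs. The Mertk-/-V1 line beside the average of the others gave 0 of 10 called, beside 0.991% of all genes, and 0 in edgeR and DESeq2. It had 3 at an unadjusted p under 0.05, beside 11.8%. Mertk-/-V2 against Mertk-/-V3 gave 0 of 10, beside 3.16%, and 5 at an unadjusted p under 0.05, beside 18.9%. The largest difference was in Per2, 0.44 ± 0.17 (limma adjusted p = 0.183). DESeq2 called 1, Clock. The passing of Per3 and Tef in one line and not in another is not a shown difference between the lines. Nr1d1 over Arntl was 0.364 to 0.422 in B6 WT, 0.564 to 0.578 in Mertk-/-V1, 0.470 to 0.553 in Mertk-/-V2 and 0.390 to 0.510 in Mertk-/-V3. The first 2 knockouts did not overlap with B6 WT, and no test or count over other genes was run.

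Of the 16 other clock genes, 13 could be tested in BMDMs, and Rorb and Hlf, with at most 1.21 and 4.75 normalized counts, were among those below the filter. Only Npas2 passed, in Mertk-/-V1, as 1 of 13, beside 7.07% of all genes in either direction. Its counts were 21.4, 22.8 and 15.6 in B6 WT and 43.5, 37.0 and 31.5 in Mertk-/-V1, a log2 fold change of 0.88 ± 0.25 (limma adjusted p = 0.0472). Arntl did not pass, with 282, 333 and 338 in B6 WT and 297, 241 and 288 in Mertk-/-V1.

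Some immediate early genes differed by much larger folds in the same BMDMs, and others by folds of the size seen for the clock genes. Of the 11 immediate early genes tested, 5 were lower and 2 higher in Mertk-/-V1 (limma), beside 7.07% of all genes in either direction. In Mertk-/-V2, 5 were lower and 1 higher, beside 4.61%. In Mertk-/-V3, 0 passed, beside 1.17%, and 4 had an unadjusted p under 0.05 (limma), beside 15.9%. Fos, a subunit of AP-1, had 3038, 2377 and 2793 normalized counts in the B6 WT libraries, 389, 490 and 471 in Mertk-/-V1, 520, 476 and 483 in Mertk-/-V2 and 3025, 2235 and 1829 in Mertk-/-V3. B6 WT and Mertk-/-V3 stood together and far above the other lines. Fosb differed by -4.14 and -3.86 on the log2 scale in Mertk-/-V1 and Mertk-/-V2, Dusp1, a phosphatase of MAP kinases, by -2.98 and -2.93, and Jun by -0.39 and -0.41. Ier2 was lower in Mertk-/-V1, by -0.48, and Arc in Mertk-/-V2, by -0.81. Atf3 was higher in both, by 0.38 and 0.29, and Egr2 in Mertk-/-V1, by 1.16. The part of this in the clock values was not tested.

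Among the glucocorticoid-responsive genes, Klf9 was higher in Mertk-/-V1 and Mertk-/-V2 by 0.46 and 0.43, and Tsc22d3, also listed as an output, differed by -0.36 and -0.69. The counts of Klf9 were 190, 189 and 186 in B6 WT, 268, 235 and 276 in Mertk-/-V1 and 234, 260 and 267 in Mertk-/-V2, with no overlap. The other 4 of the 6 genes did not pass in either line, where 7.07% and 4.61% of all genes did. The 7 macrophage markers summed to 270271 to 281557 in B6 WT, 256796 to 275733 in Mertk-/-V1, 257749 to 280711 in Mertk-/-V2 and 260652 to 272130 in Mertk-/-V3, so the groups overlapped in this sum. C1qa was lower in Mertk-/-V1, by -0.39, and in Mertk-/-V3, by -0.31, the marker that passed in these lines.

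Whether the knockout effect on the clock genes differs between the tissues was tested in one edgeR model on the recovered reads of all 30 libraries. None of the 10 genes passed for any line, beside 0.158%, 0.0431% and 0.0192% of 20873 genes, and 0 passed in DESeq2. At an unadjusted p under 0.05 each line had 2, beside 7.04%, 8.54% and 4.82%. In Mertk-/-V1 the difference, RPE minus BMDMs, was below 0 for all genes but Per1, from -0.47 for Per2 to -0.14 for Cry2, with 0.04 for Per1. A difference between the tissues is thus not shown for any of the 10.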

How the data were processed

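RNA-seq of polyA RNA was collected from RPE and BMDMs (30 libraries). The deposited signal values are normalized counts: per the paper's methods and the labels, the authors trimmed reads with btrim, aligned them with STAR to GRCm38 and divided the counts by one DESeq2 size factor for each library, separately for each tissue. Whole reads were recovered from the deposited values for all genes within a tolerance of 0.01. Libraries held 14137666 to 34124049 reads in RPE and 16629659 to 25653814 in BMDMs, and low counts limit precision.

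Genotypes were compared with limma 3.58.1 (R 4.3.3) on log2(value + 1) for genes with a mean of at least 10, with 4 genotypes in a model and Benjamini-Hochberg adjustment over 18832 genes in RPE and 13420 in BMDMs, so fold changes of low genes are understated. Replicate sets were compared in a model with 6 cells, and the tissues with edgeR 4.0.16 on recovered reads. Alternatives were a pseudocount of 5, no filter, counts scaled to the library total, edgeR, DESeq2 1.42.0 and array quality weights. Others were only the groups compared, a replicate block, the replicate set as a term and each library left out. The rod level as a covariate or slope, and leaving out the 3 libraries richest in rod transcripts, were chosen after seeing the data. The scripts were tested on simulated data. Exon lengths and positions came from GENCODE M21 and promoters from RefSeq. The 10 genes and the other lists were chosen with earlier results of these data known. The text names all 10 genes and, from the other clock, output, glucocorticoid-responsive and immediate early lists, those that passed. For Dbp, Nr1d1 and Per3 it names the 3 nearest genes outside the 10. Marker genes, Arntl and Fos values were named after their values were seen.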

Additional observations from a re-analysis of the deposited data

How the results depend on the processing

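The number of the 10 clock genes that passed moved with some settings, and the cause was not tested. For most settings the share of all genes that passed is not given here. The counts below therefore do not set the clock genes apart from other genes. With array quality weights it was 6 for Mertk-/-V3 and 3 for Mertk-/-V2 minus Mertk-/-V3 in RPE, 5 between the sets, 2 within B6 WT, 5 within Mertk-/-V1 and 2 for the difference of the set differences, and in BMDMs 5 for Mertk-/-V2 and 3 for Mertk-/-V3. With the replicate block it was 1 for Mertk-/-V3 RPE (Cry1) and 1 for Mertk-/-V1 BMDMs. Same-numbered libraries correlated over 0.1 in 5 of 21 RPE and 4 of 18 BMDM pairs. Unlike-numbered libraries did so in 10 of 42 and 14 of 36 pairs. In RPE replicates 4 to 6, B6 WT and Mertk-/-V1 libraries of the same number stood at 0.567, 0.412 and 0.0846. Those of unlike number ran from -0.525 to 0.364 there, so these counts do not settle whether the numbers pair the samples. With the rod level as a covariate it was 0 between the sets and 0 within Mertk-/-V1, and the set differences of Cry1 and Cry2 turned to -0.0211 and -0.00878 on the log2 scale. Scaling to the library total gave 3 within Mertk-/-V1 and 1 for Mertk-/-V2 minus Mertk-/-V3 BMDMs, and turned Clock between the sets to 0.0135. Within Mertk-/-V1, edgeR gave 2 and DESeq2 gave 3, and DESeq2 gave 1 for Mertk-/-V2 minus Mertk-/-V3 BMDMs. Without a filter Mertk-/-V1 BMDMs gave 2, and with only the groups compared Mertk-/-V2 BMDMs gave 0. Without RPE replicates 4 to 6 the tissue difference of Mertk-/-V3 gave 1 (Dbp). Leaving out each library gave 1 to 5 between the sets (1 without Mertk-/-V1 replicate 3, 5 or 6, and 5 without replicate 4), 0 to 4 within Mertk-/-V1, 1 to 6 for Mertk-/-V1 BMDMs, 1 to 4 for Mertk-/-V2 BMDMs and 0 to 1 for Mertk-/-V2 minus Mertk-/-V3 BMDMs. Array quality weights and the replicate block raised the genes called overall in Mertk-/-V3 RPE from 13 to 12592 and 5619. In all, 3192 single-gene values stayed on their side of the threshold, 199 of them with a change of sign in values that did not pass, 60 newly passed, 45 no longer passed and 3 that had passed turned direction.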
